A study of Mus musculus with 24 samples.

Results

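The data described here are the response to interleukin-4 (IL-4) of macrophages grown from the bone marrow of mice labelled as knockouts of MAPKAP kinase 2 (MK2, gene Mapkapk2). The libraries were chosen by their titles, 6 of knockout macrophages given IL-4 (M2) and 6 of knockout macrophages left without it (M0), which makes 12 of the 24 RNA-seq libraries of the series. All 12 are of strain C57BL/6N and genotype MK2 KO. Marrow cells of femurs and tibias were grown with murine M-CSF at 10 ng/ml, and on day 7 they were lifted and replated in medium with serum. M2 cells then had murine IL-4 at 10 ng/ml, M0 cells had none, and RNA was taken after 24 h. The other 12 libraries are 6 of wild-type M2 and 6 of wild-type M0 macrophages of the same strain and culture, and they are used here only beside the knockout values. The labels say neither which part of Mapkapk2 was deleted nor whether the libraries of a group came from separate animals. The p-values therefore measure the spread between these libraries, which may be technical.

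Levels are given as CPM, counts scaled to a common library size, from the lowest to the highest of the 6 libraries with their median, and differences as log2 fold changes of M2 over M0 with their standard error (SE). The test was edgeR's quasi-likelihood test with Benjamini-Hochberg adjustment over all 12797 genes tested. Each SE was calculated back from the log2 fold change and the F statistic of this test. Genes are said to have risen or fallen where the adjusted p was below 0.05, with no limit on the size of the change. Total counts were 7984226 to 13492507 in the M2 libraries and 8127775 to 11222096 in the M0 libraries.

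IL-4 is a cytokine of T helper type 2 cells, basophils and other cells. It binds a receptor made of the IL-4 receptor alpha chain with either the common gamma chain or the IL-13 receptor alpha 1 chain, and Janus kinases on these chains phosphorylate the transcription factor STAT6. In mouse macrophages this leads to a state often called alternative activation, known for arginase, chitinase-like and resistin-like proteins, lectins and the ligands of PD-1. MK2 is a kinase that p38 activates, and it is known for holding AU-rich messenger RNAs of inflammatory cytokines in a stable and translated form.

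Mapkapk2 itself (chromosome 1, 131053700 to 131097826, minus strand, on mm10 with GENCODE M21) had reads in every knockout library, at 47.8 to 60.7 CPM (median 54.0) in M2 libraries, against 54.7 to 63.4 CPM (median 58.7) in M0 libraries. In wild-type libraries it was at 113 to 139 CPM (median 116) in M2 libraries, against 100.3 to 138 CPM (median 117) in M0 libraries, so that every knockout library lay below every wild-type library. Reads from the part of the transcript that remains cannot be told apart from full-length transcript. Between M2 and M0 cells of the knockout it missed the threshold (log2 fold change -0.12, SE 0.07, adjusted p = 0.269).

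The labelled cell type was checked on 15 genes of macrophage identity, all of which were detected. Adgre1 (F4/80), Cd68, Csf1r (the M-CSF receptor) and Lyz2 (lysozyme) were at 1111 to 1409.5, 1640.2 to 2092, 1143 to 1533 and 6889 to 8458 CPM in M2 libraries, against 1099.9 to 1281, 1623 to 2031, 1065 to 1209 and 7087 to 9886 CPM in M0 libraries, and none of these 4 passed the test. Of the 15, 2 rose, Itgam among them with overlap between the groups, and 5 fell (13.3% and 33.3%, against 12.2% and 11.4% of all genes tested). The falls were of Cd14, Cx3cr1, Fcgr1, Aif1 and Cybb. Of the markers of T cells and endothelium, Cd3e and Cdh5 were near 0, while Cd4 and Vwf of the same lists were not. Over the 6 libraries of a group Cd3e, of T cells, had 1 count in M2 and 4 in M0, and Cdh5, of endothelium, 14 and 28.

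Summed over their lists, stromal markers took 11.6 to 25.5 CPM in M2 and 11.2 to 33.7 CPM in M0, neutrophil markers 105 to 178 and 112 to 195, erythroid and megakaryocyte markers 76.3 to 147 and 120.2 to 139.8, and T and NK markers 11.8 to 22.6 and 22.5 to 32.7, nearly all of it Cd4 (958 and 1596 counts, adjusted p = 0.0618). The sums for mast cells with basophils and eosinophils were 6.50 to 8.87 CPM in M2 and 5.34 to 11.05 CPM in M0, and for dendritic cells 8.08 to 11.97 and 4.31 to 11.2 CPM. Among these 6 lists, the members that passed the test were Mmp8, Batf3 and Epor. The adjusted p of Epor, 0.0318, reached 0.0836 when 1 library was left out. Of the listed genes, 14 of 15 stromal, 8 of 12 neutrophil, 3 of 10 erythroid and megakaryocyte, 1 of 12 T and NK, 4 of 11 mast cell and granulocyte, and 4 of 11 dendritic genes had enough counts to be tested. The B cell sum was lower with IL-4, at 7.14 to 13.1 CPM in M2 and 17.8 to 28.3 CPM in M0, mostly through Ighm (478 and 1110 counts), whose adjusted p of 0.0448 reached 0.0894 when 1 library was left out, while Ebf1 of the same list rose (log2 fold change 1.90, SE 0.55). The endothelial sum was higher, at 176 to 262 CPM in M2 and 91.3 to 107 CPM in M0, and Vwf held most of it. Of 10 endothelial genes listed 3 had enough counts to be tested, of which 2 rose, Vwf among them, and 1 fell. The part of these cells in any result was not tested. In RNA from a whole culture, fewer cells of a type and less RNA per cell cannot be told apart.

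Knockout replicates 1 to 3 stood apart from replicates 4 to 6 in both groups. Top2a, for example, was at 88.4 to 129.6 CPM in M2 and 238 to 278 CPM in M0 of replicates 1 to 3, and at 73.1 to 73.4 CPM in M2 and 141 to 161 CPM in M0 of replicates 4 to 6. The labels name no batch, so each gene list was also counted within replicates 1 to 3 alone and within replicates 4 to 6 alone, and those counts are given where either differs from the pooled count by over 1.5 times and by 2 genes or more. A count moved that far in 6 lists without the 3 libraries whose numbers lie apart from the rest, of which M2 replicate 2 is the knockout one. Then 5 chemoattractant receptors, 3 fusion genes, 7 glycolysis and hypoxia genes, 7 Fc and TREM receptor genes and 4 tetraspanins fell, and of checkpoint genes 5 rose and 5 fell.

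All 5 genes that define the response were far higher with IL-4. They were chosen with earlier results of these data known, so their rise and lack of overlap follow in part from that choice. Mgl2, a galactose-binding lectin (chromosome 11, 70130329 to 70137550, plus strand), was at 39.3 to 50.5 CPM (median 46.2) in M2 libraries, against 0.348 to 1.27 CPM (median 0.602) in M0 libraries (log2 fold change 6.06, SE 0.22, adjusted p = 3.88e-16). Il1rl2, the receptor of IL-36 cytokines (chromosome 1, 40324610 to 40367562, plus strand), was at 15.5 to 19.6 CPM (median 18.6) in M2 libraries, against 2.05 to 2.72 CPM (median 2.38) in M0 libraries (log2 fold change 2.93, SE 0.11, adjusted p = 3.88e-16). These 2 had the smallest adjusted p of all genes. Lrrc32, or GARP, which holds latent TGF-beta at the cell surface (chromosome 7, 98489283 to 98502181, plus strand), was at 10.7 to 17.9 CPM (median 15.5) in M2 libraries, against 1.21 to 3.13 CPM (median 2.19) in M0 libraries (log2 fold change 2.79, SE 0.17, adjusted p = 4.08e-12). Pdcd1lg2, the PD-1 ligand PD-L2 (chromosome 19, 29410919 to 29471161, plus strand), was at 5.80 to 14.4 CPM (median 10.6) in M2 libraries, against 0 to 0.348 CPM (median 0.0903) in M0 libraries (log2 fold change 6.29, SE 0.59, adjusted p = 1.57e-08). Tmem26, a transmembrane protein (chromosome 10, 68723646 to 68782650, plus strand), was at 80.0 to 162 CPM (median 129) in M2 libraries, against 1.97 to 4.67 CPM (median 2.98) in M0 libraries (log2 fold change 5.30, SE 0.36, adjusted p = 3.01e-10). For each of the 5, every M2 library lay above every M0 library, and the log2 fold change in replicates 1 to 3 and in replicates 4 to 6 differed by at most that of Mgl2 (6.45 and 5.73). Over all genes tested, 14% had no overlap between M2 and M0 libraries, in either direction.

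The 15 largest rises, among genes averaging a log2 CPM of 2 or more, held 4 of these markers. Secreted effectors were among them. Retnla, a resistin-like protein, was at 49.7 to 129 CPM (median 82.0) in M2 libraries and had 4 counts over all M0 libraries, 3 of them in replicate 2. The ratio of its counts, scaled by depth, was 1239 (95% counting interval 483 to 4547), and 4124 without that library. Chil3, a chitinase-like protein also called Ym1, was at 139.8 to 441 CPM (median 309) in M2 libraries, against 9.89 to 27.1 CPM (median 17.4) in M0 libraries (log2 fold change 4.06, SE 0.42, adjusted p = 2.43e-07). Ear2, a ribonuclease of the eosinophil-associated family, was at 8.15 to 26.9 CPM (median 17.6) in M2 libraries, against 1.16 to 3.43 CPM (median 1.4997) in M0 libraries (log2 fold change 3.17, SE 0.46, adjusted p = 1.83e-05). Close copies of Chil3 and Ear2 exist in the mouse genome, so reads of 40 bp may have been split between them.

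Arginine genes followed. Arg1, arginase, which splits arginine into ornithine and urea, was at 6.43 to 15.2 CPM (median 11.8) in M2 libraries, against 0 to 0.361 CPM (median 0.1004) in M0 libraries (log2 fold change 6.30, SE 0.39, adjusted p = 8.21e-12). Slc7a2, a transporter of cationic amino acids, was at 90.6 to 148 CPM (median 121) in M2 libraries, against 3.25 to 6.95 CPM (median 6.45) in M0 libraries (log2 fold change 4.31, SE 0.24, adjusted p = 8.21e-12). A pair of channel genes that macrophages are not best known for had almost no reads without IL-4. Kcnd3, a voltage-gated potassium channel, was at 4.44 to 12.6 CPM (median 8.996) in M2 libraries. It had 518 counts there, against 0 counts in M0 libraries. With 3 counts over the M0 group taken as the floor, the ratio of its counts, scaled by depth, was 180.0. The counting interval of this ratio, at the level used for Retnla, was 61.3 to 876. Scn3a, a voltage-gated sodium channel, was at 6.27 to 16.3 CPM (median 9.34) in M2 libraries and had 2 counts over the M0 libraries.

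The rest of the 15 were Lipn, Apol7c, Bex1 and Mcf2l. Lipn, of the acid lipase family, was at 22.4 to 47.6 CPM (median 34.4) in M2 libraries, against 2.65 to 5.14 CPM (median 3.95) in M0 libraries. Apol7c, of the apolipoprotein L family, was at 12.6 to 23.6 CPM (median 16.03) in M2 libraries, against 1.16 to 3.91 CPM (median 1.56) in M0 libraries. Bex1, a small X-linked protein best known from brain, was at 48.3 to 95.8 CPM (median 71.4) in M2 libraries, against 5.45 to 12.3 CPM (median 9.53) in M0 libraries. All 3 were higher in every M2 library. Mcf2l, an exchange factor of small GTPases, was at 24.3 to 41.3 CPM (median 38.4) in M2 libraries, against 3.43 to 6.59 CPM (median 4.19) in M0 libraries. Their log2 fold changes were 3.14 (SE 0.22), 3.07 (SE 0.51), 2.97 (SE 0.30) and 2.97 (SE 0.17). For none of the 15 genes did an M2 library overlap an M0 library, against 14% of all genes tested without overlap. The 15 were chosen as large rises that passed the test, so their lack of overlap follows in part from that choice. Between genes, levels can be compared on the authors' length-scaled GETMM signal. On that scale Chil3 was highest of the 15 with IL-4, at 357 ± 122 (mean ± SD, n = 6), followed by Retnla at 247 ± 83.7, Bex1 at 150.4 ± 34.2 and Mgl2 at 64.5 ± 8.01. The means of Chil3 and Retnla differed by less than the SD of Chil3, and Kcnd3 and Scn3a stood lowest, at 4.95 ± 1.47 and 3.44 ± 1.44.

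**Figure D1:**
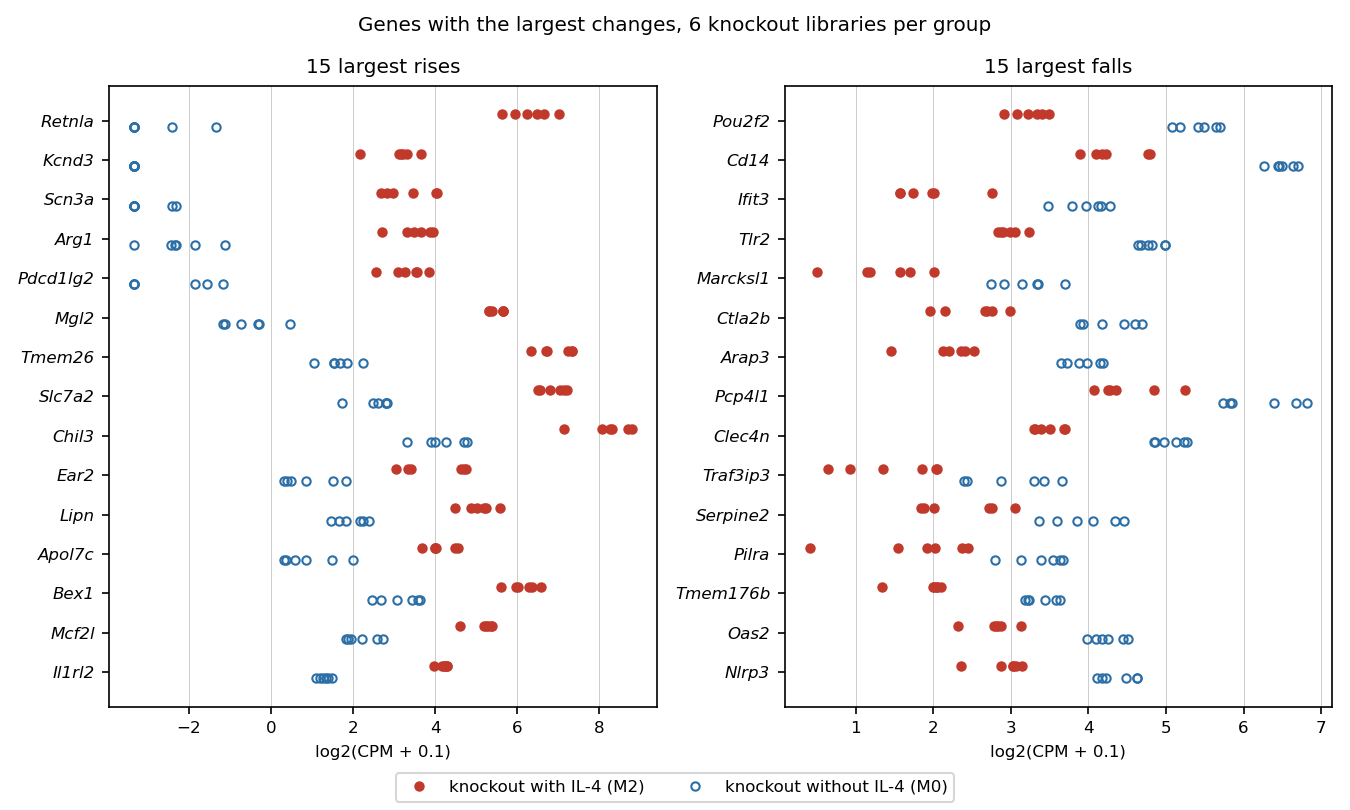
Level of the 15 genes with the largest rises (left) and the 15 with the largest falls (right) in each of 12 knockout libraries, as log2(CPM + 0.1) on the x axis. Filled red circles are the 6 M2 libraries and open blue circles the 6 M0 libraries. No M2 library overlaps an M0 library in any of the 30 genes, which were chosen as large changes that passed the test. Of all genes tested 14% had no overlap.

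STAT6 binds palindromes of the letters TTCNNNNGAA, which read the same on both strands. The window from 250 bases before to 50 bases after the start was available from RefSeq (GRCm38.p6) for 12 of the 15 genes, and 4 of the 12 windows (33.3%) held such a palindrome. Among all tested genes 624 of 9355 windows did (6.67%), among genes at least 2-fold higher 21 of 181 (11.6%), and among genes at least 2-fold lower 15 of 194 (7.73%). The genes at least 2-fold higher include the 15. The 250 bases before the start are shown for the 4 genes, 5′ to 3′ on the gene's strand, with the palindrome in capitals, because they are the genes with large rises whose promoter holds the letters STAT6 reads. They lie at chr16:48842359-48842608 on the plus strand (Retnla), chr19:29410669-29410918 on the plus strand (Pdcd1lg2), chr10:68723496-68723745 on the plus strand (Tmem26) and chr15:77533316-77533565 on the minus strand (Apol7c).
Retnla: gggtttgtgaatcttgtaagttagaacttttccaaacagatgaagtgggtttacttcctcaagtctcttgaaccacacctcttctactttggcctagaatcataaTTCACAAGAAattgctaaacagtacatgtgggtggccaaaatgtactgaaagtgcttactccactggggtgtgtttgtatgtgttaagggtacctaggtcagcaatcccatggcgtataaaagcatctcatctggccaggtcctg
Pdcd1lg2: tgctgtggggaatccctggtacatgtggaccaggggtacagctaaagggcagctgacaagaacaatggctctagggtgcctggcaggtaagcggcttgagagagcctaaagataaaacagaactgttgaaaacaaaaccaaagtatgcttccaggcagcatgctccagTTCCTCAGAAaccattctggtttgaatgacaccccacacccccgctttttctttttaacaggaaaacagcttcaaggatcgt
Tmem26: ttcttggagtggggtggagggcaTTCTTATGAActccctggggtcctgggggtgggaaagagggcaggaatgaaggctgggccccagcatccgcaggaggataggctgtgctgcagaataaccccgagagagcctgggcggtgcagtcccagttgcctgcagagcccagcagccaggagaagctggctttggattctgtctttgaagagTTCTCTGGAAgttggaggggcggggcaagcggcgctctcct
Apol7c: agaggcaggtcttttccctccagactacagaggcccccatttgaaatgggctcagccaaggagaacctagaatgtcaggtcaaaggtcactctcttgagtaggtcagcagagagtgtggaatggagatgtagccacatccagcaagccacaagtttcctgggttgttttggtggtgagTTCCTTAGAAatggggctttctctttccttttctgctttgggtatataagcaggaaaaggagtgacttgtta
Counted from the start, the palindrome began at -145 in Retnla, -82 in Pdcd1lg2, -227 and -41 in Tmem26, and -72 in Apol7c. A match describes these letters only and does not show binding, and windows without one, such as that of Mgl2, say nothing of sites elsewhere.

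Over all genes tested, 3024 changed with IL-4 in knockout cells (23.6%), of which 1563 were higher (12.2%) and 1461 lower (11.4%). Most changes were small. The median log2 fold change was 0.42 among rises and -0.57 among falls, and 0.00 over all genes tested. Rises of at least 2-fold numbered 260 and falls 251, while at 4-fold the numbers were 79 and 17. Knockout libraries of M2 and M0 did not overlap in 1791 genes (14% of those tested), and 1711 of these had passed the test. Most genes named here were chosen by large changes that passed, so a lack of overlap in them follows in part from that choice. The genes that rose at least 4-fold took 0.209 to 0.377% of all counts in M2 libraries and 0.0406 to 0.0605% in M0 libraries. Counts of rises and falls in a gene list are to be set beside the shares over all genes. The lists were chosen with earlier results of these data known, and 472 of their 965 distinct tested members passed. A share above that over all genes therefore follows in part from the choice of list members.

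**Figure D2:**
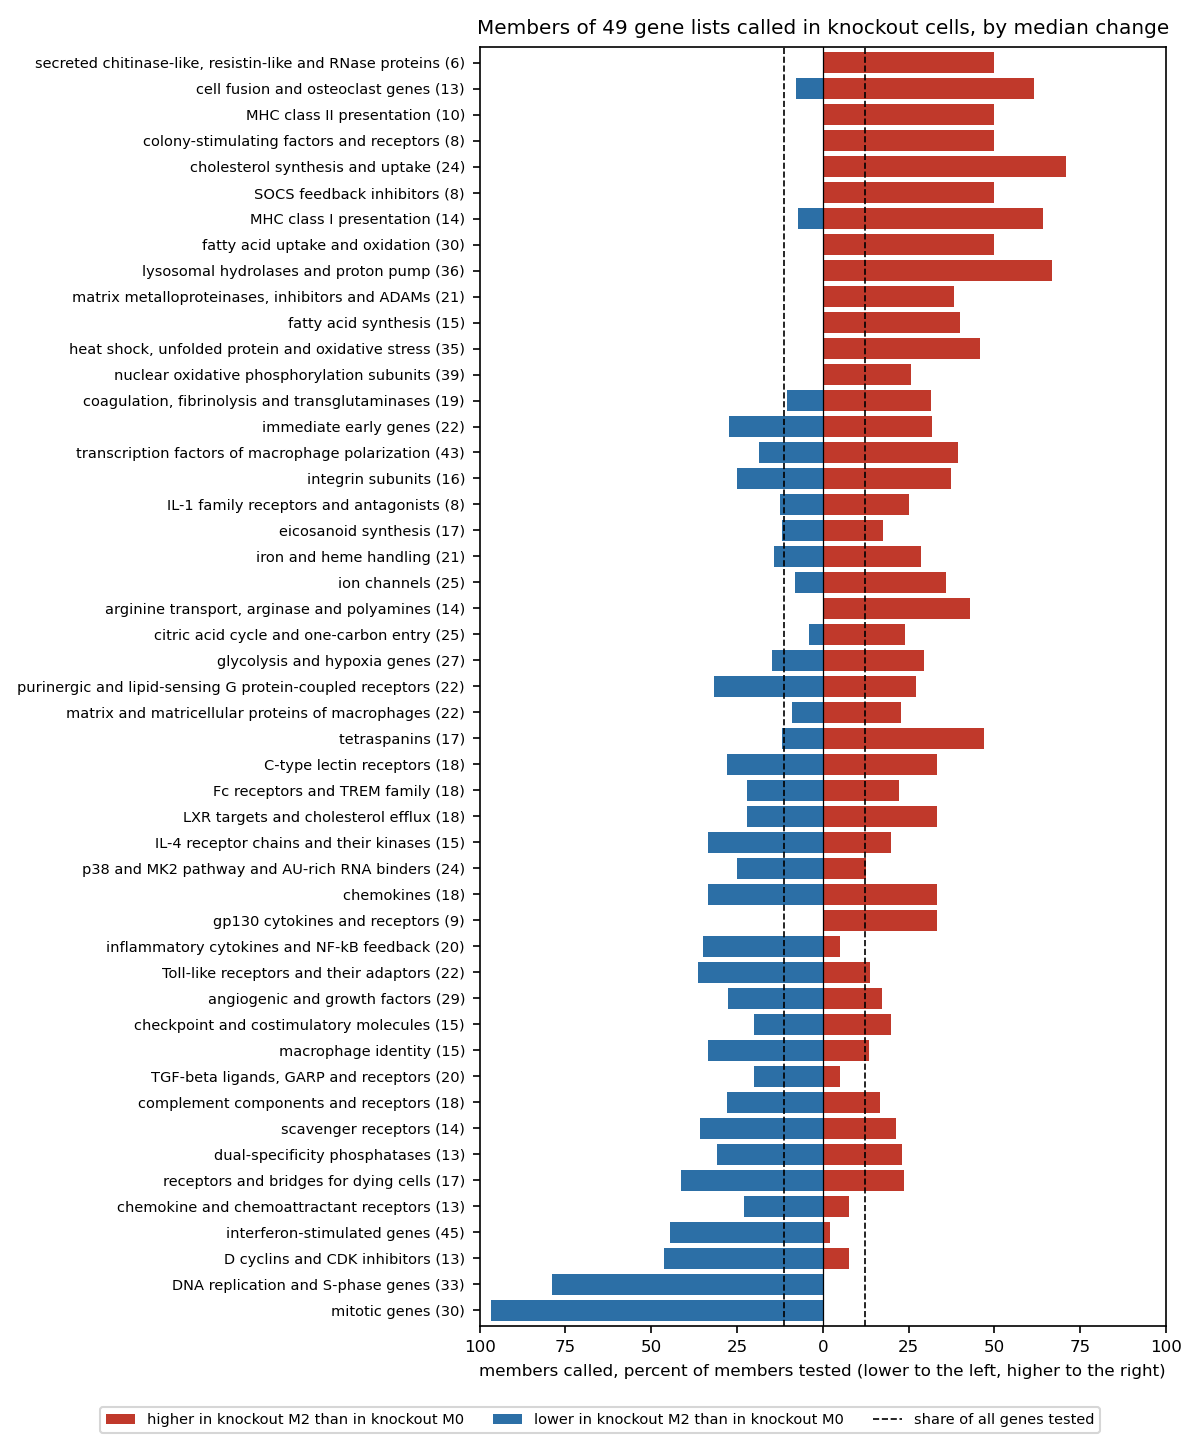
Share of the tested members of 49 gene lists (number tested in brackets) that were higher (red, to the right) or lower (blue, to the left) in knockout M2 than in knockout M0 cells, as percent of members tested, ordered by the median log2 fold change of the list. Dashed lines mark the share over all genes tested, 12.2% higher and 11.4% lower. Mitotic and replication genes lie at the lower end, and effectors and cell fusion genes at the upper. The lists were chosen with earlier results of these data known, so their distance from the lines follows in part from that choice.

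The 15 largest falls held several receptors of microbial products. Pou2f2, the transcription factor Oct-2, was at 7.44 to 11.1 CPM (median 9.61) in M2 libraries, against 33.6 to 51.9 CPM (median 43.6) in M0 libraries (log2 fold change -2.18, SE 0.15, adjusted p = 5.88e-11). Cd14, which hands lipopolysaccharide to TLR4, was at 14.8 to 27.7 CPM (median 18.3) in M2 libraries, against 76.7 to 104 CPM (median 88.9) in M0 libraries (log2 fold change -2.13, SE 0.18, adjusted p = 3.42e-09). Tlr2, the receptor of bacterial lipopeptides, was at 7.05 to 9.32 CPM (median 7.60) in M2 libraries, against 24.8 to 31.8 CPM (median 27.7) in M0 libraries (log2 fold change -1.84, SE 0.16, adjusted p = 1.68e-09). In these 3 every M2 library was below every M0 library. Nlrp3, the sensor of the inflammasome that matures IL-1 beta, was at 5.05 to 8.78 CPM (median 8.06) in M2 libraries, against 17.2 to 24.7 CPM (median 20.5) in M0 libraries (log2 fold change -1.46, SE 0.13, adjusted p = 4.12e-09). Clec4n, the fungal receptor dectin-2, was at 9.79 to 12.9 CPM (median 10.8) in M2 libraries, against 28.7 to 38.5 CPM (median 33.2) in M0 libraries (log2 fold change -1.57, SE 0.22, adjusted p = 1.1e-05). Both were lower in every M2 library than in any M0 library.

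Further genes of the 15 were Ifit3 and Oas2, both induced by interferon and taken up with their group, and Traf3ip3, a partner of TRAF3. Marcksl1, an actin-binding protein of the MARCKS family, was at 1.32 to 3.92 CPM (median 2.52) in M2 libraries, against 6.63 to 12.9 CPM (median 9.39) in M0 libraries. Serpine2, an inhibitor of thrombin and plasminogen activators, was at 3.49 to 8.23 CPM (median 5.21) in M2 libraries, against 10.2 to 21.9 CPM (median 15.5) in M0 libraries. Pilra, an inhibitory receptor of myeloid cells, was at 1.23 to 5.38 CPM (median 3.82) in M2 libraries, against 6.84 to 12.6 CPM (median 10.99) in M0 libraries. Arap3, a GTPase-activating protein, fell as well (log2 fold change -1.73, SE 0.17), as did Pcp4l1 (log2 fold change -1.70, SE 0.26), Tmem176b (log2 fold change -1.48, SE 0.18) and Ctla2b (log2 fold change -1.74, SE 0.27). Ctla2b has a close copy, Ctla2a, so its counts are uncertain. Pcp4l1 had its highest M2 library at 37.9 CPM and its lowest M0 library at 53.0 CPM. The groups overlapped in none of the 15, which were chosen as large falls that passed the test.

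Some genes with smaller changes had among the smallest adjusted p in their direction. By adjusted p the leading rises included Wdfy2, an endosomal protein, at 369 to 475 CPM (median 418) in M2 libraries, against 153 to 172 CPM (median 166) in M0 libraries (log2 fold change 1.35, SE 0.07, adjusted p = 1.63e-13). Il6st, the signalling chain gp130, was at 703 to 889 CPM (median 844) in M2 libraries, against 311 to 338 CPM (median 327) in M0 libraries (log2 fold change 1.33, SE 0.07, adjusted p = 1.11e-12). Bcar3, an adaptor of Cas proteins, Nek6, a mitotic kinase, Inpp5a, an inositol phosphate phosphatase, and Dhrs9, a dehydrogenase of retinoids and steroids, had log2 fold changes of 1.42, 1.06, 1.55 and 1.49, each with an SE of at most 0.09. Among falls, Clec12a, an inhibitory lectin receptor, was at 169 to 238 CPM (median 193) in M2 libraries, against 402 to 475 CPM (median 442) in M0 libraries (log2 fold change -1.18, SE 0.09, adjusted p = 1.02e-10). Sh3pxd2a, the podosome scaffold Tks5, was at 20.4 to 23.4 CPM (median 22.0) in M2 libraries, against 40.3 to 48.0 CPM (median 45.4) in M0 libraries (log2 fold change -1.02, SE 0.08, adjusted p = 1.85e-10). Zcchc24, Fam129a, the ETS factor Elk3, the Cdc42 exchange factor Fgd3 and the scaffold Sash1 had log2 fold changes of -1.09 to -0.62, with SE of at most 0.09.

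Of the receptor and kinase genes of the IL-4 pathway, 15 were tested, 3 rose, 5 fell and the median log2 fold change was -0.03. The falls numbered 2 in replicates 1 to 3, 6 in replicates 4 to 6, and 3 without M0 replicate 1 or any of M2 replicates 4, 5 and 6. Il4ra, the chain that binds IL-4, was at 56.6 to 81.6 CPM (median 64.1) in M2 libraries, against 58.1 to 72.1 CPM (median 66.6) in M0 libraries and missed the threshold (log2 fold change 0.01, SE 0.09, adjusted p = 0.979). Stat6 was at 216 to 243 CPM (median 230.1) in M2 libraries, against 227 to 243 CPM (median 233) in M0 libraries and did not pass either (log2 fold change -0.03, SE 0.04, adjusted p = 0.702). For both the groups overlapped. Jak2, a Janus kinase, was at 108 to 172 CPM (median 135) in M2 libraries, against 39.7 to 47.3 CPM (median 40.5) in M0 libraries (log2 fold change 1.69, SE 0.12, adjusted p = 7.22e-11), and every M2 library lay above every M0 library. Jak1 rose less, at 409 to 471 CPM with IL-4, against 323 to 354 CPM without it (log2 fold change 0.33, SE 0.06). Il13ra1, the chain shared with the IL-13 receptor, was at 7.25 to 13.6 CPM (median 10.7) in M2 libraries, against 14.3 to 22.4 CPM (median 17.0) in M0 libraries and fell (log2 fold change -0.74, SE 0.15), as did Ptpn6, the phosphatase SHP-1 (log2 fold change -0.44, SE 0.08), Irs2, an adaptor (log2 fold change -0.34, SE 0.09), Jak3 (log2 fold change -0.32, SE 0.11) and Inpp5d, the lipid phosphatase SHIP (log2 fold change -0.17, SE 0.06). The calls of Jak3 and Inpp5d were lost when 1 library was left out, with adjusted p up to 0.0883 and 0.0754.

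SOCS proteins are inhibitors that cytokine receptors induce and that act back on them. Of 8 tested, 4 rose and 0 fell (median log2 fold change 0.42), with 4 rises in replicates 1 to 3 and 2 in replicates 4 to 6. Cish was at 2.98 to 6.25 CPM (median 4.59) in M2 libraries, against 0 to 0.510 CPM (median 0.201) in M0 libraries (log2 fold change 4.31, SE 0.48, adjusted p = 1.52e-07). Socs1 was at 0.897 to 4.795 CPM (median 2.33) in M2 libraries, against 0.20001 to 1.01 CPM (median 0.502) in M0 libraries (log2 fold change 2.32, SE 0.46, adjusted p = 0.000466). Socs2 was at 1.12 to 2.22 CPM (median 1.59) in M2 libraries, against 0 to 1.36 CPM (median 0.492) in M0 libraries (log2 fold change 1.47, SE 0.42, adjusted p = 0.0101), with overlap between the groups in both. Socs3, the feedback inhibitor of gp130, missed the threshold (log2 fold change 0.50, SE 0.54, adjusted p = 0.582).

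Transcription factors moved in both directions, 17 higher and 8 lower of 43 (39.5% and 18.6%, against 12.2% and 11.4% of all genes tested). Irf4, a factor of IL-4 polarization, was at 5.65 to 9.30 CPM (median 7.01) in M2 libraries, against 0.602 to 1.97 CPM (median 1.004) in M0 libraries (log2 fold change 2.63, SE 0.25, adjusted p = 1.52e-08). Bhlhe40, a basic helix-loop-helix repressor, was at 139.9 to 195 CPM (median 182) in M2 libraries, against 31.8 to 50.4 CPM (median 42.0) in M0 libraries (log2 fold change 2.08, SE 0.14, adjusted p = 3.23e-11). Egr2 was at 90.7 to 136 CPM (median 124) in M2 libraries, against 25.5 to 51.9 CPM (median 36.6) in M0 libraries (log2 fold change 1.68, SE 0.17, adjusted p = 3.76e-08). Libraries of the groups did not overlap in these 3. Batf3 (log2 fold change 1.87, SE 0.31), Klf4 (log2 fold change 1.72, SE 0.19), Irf1 (log2 fold change 1.26, SE 0.14) and Pparg, the lipid-sensing nuclear receptor (log2 fold change 0.78, SE 0.08), rose too, as did the factors Mitf (log2 fold change 0.73, SE 0.10) and Tfec (log2 fold change 0.71, SE 0.08). Among falls beside Pou2f2 were Id3, an inhibitor of helix-loop-helix factors (log2 fold change -1.47, SE 0.30), the orphan receptor Nr4a1 (log2 fold change -1.39, SE 0.24), Irf7 (log2 fold change -1.04, SE 0.24) and Maf (log2 fold change -0.90, SE 0.11).

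**Figure D3:**
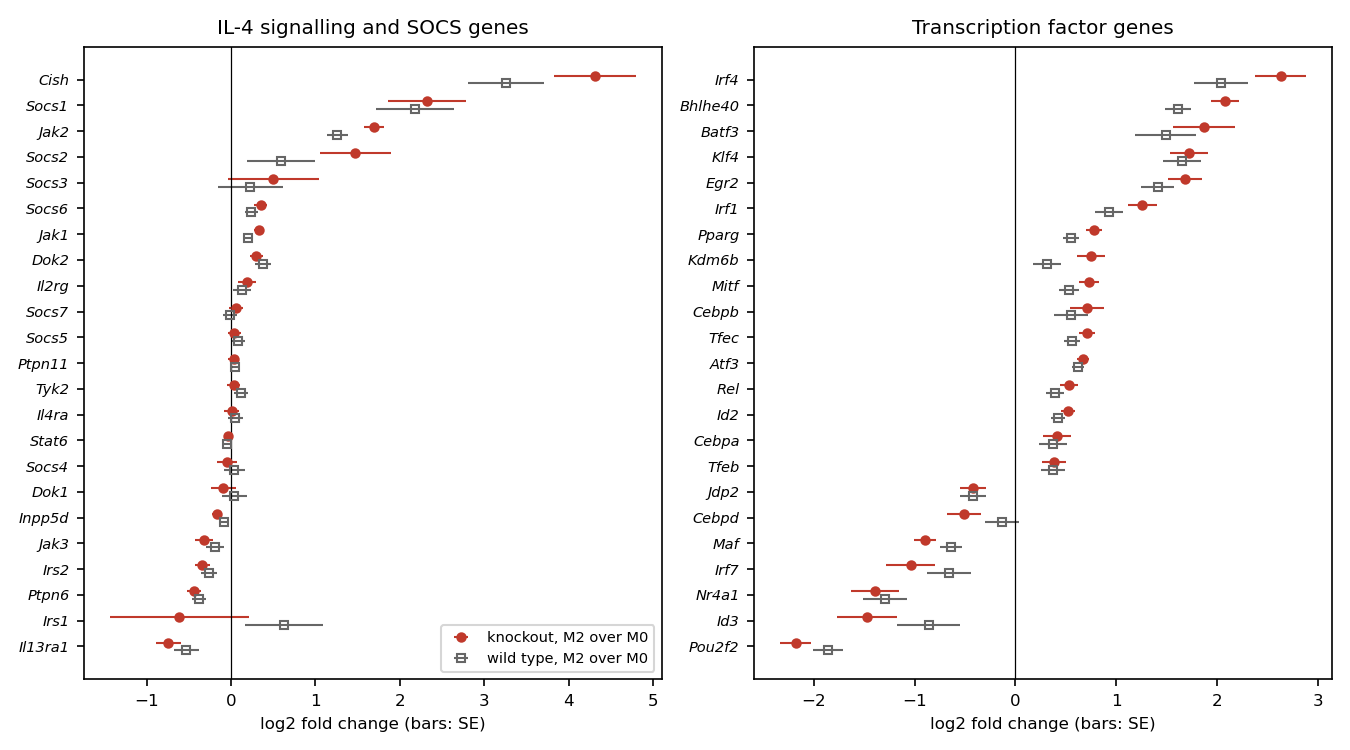
Log2 fold change of M2 over M0 with its SE (bars) for IL-4 signalling and SOCS genes (left) and for 23 transcription factor genes that passed the test in knockout (right), with knockout as filled red circles and wild type as open grey squares. In knockout Cish, at 4.31, lies highest on the left, Jak2 lies at 1.69, and Il4ra and Stat6 lie at 0.01 and -0.03.

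Of 6 chitinase-like, resistin-like and RNase genes tested, Retnla, Chil3 and Ear2 rose and none fell. Of 14 arginine and polyamine genes 6 rose and none fell, with a median of 0.11, and 3 rose and none fell in replicates 1 to 3, while 5 rose and 3 fell in replicates 4 to 6. Beside Arg1 and Slc7a2 the rises over all replicates were Sat1, which acetylates polyamines, at 518 to 667 CPM (median 569) in M2 libraries, against 333 to 426 CPM (median 393) in M0 libraries (log2 fold change 0.61, SE 0.07, adjusted p = 7.03e-07), Odc1, ornithine decarboxylase (log2 fold change 0.18, SE 0.07, adjusted p up to 0.108 without 1 library), Amd1 (log2 fold change 0.36, SE 0.07) and Ass1, which rebuilds arginine (log2 fold change 0.57, SE 0.17). Nos2, the other main user of arginine in macrophages, was too low to be tested, with 3 counts in M2 and 1 in M0 libraries. Of 18 C-type lectin genes 6 rose and 5 fell. Clec7a, the beta-glucan receptor dectin-1, was at 1237 to 1741 CPM (median 1567) in M2 libraries, against 426 to 684 CPM (median 557) in M0 libraries (log2 fold change 1.45, SE 0.16, adjusted p = 1.89e-07), the opposite direction to Clec4n. Mrc1, the mannose receptor, was at 1455 to 2077 CPM with IL-4, against 879.7 to 1320.3 CPM without it (log2 fold change 0.73, SE 0.09). Clec4e, or mincle, fell (log2 fold change -1.28, SE 0.31), with overlap between the groups.

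Checkpoint and costimulatory genes were mixed, with 3 higher and 3 lower of 15, and 5 lower in replicates 4 to 6. Cd274, which encodes PD-L1, was at 285 to 394 CPM (median 344) in M2 libraries, against 119 to 139 CPM (median 126) in M0 libraries (log2 fold change 1.42, SE 0.11, adjusted p = 4e-10), so both PD-1 ligands rose. Icosl, the ligand of ICOS, was at 0.240 to 1.22 CPM (median 0.532) in M2 libraries, against 1.90 to 4.54 CPM (median 2.99) in M0 libraries (log2 fold change -2.17, SE 0.32, adjusted p = 9.35e-06). Havcr2, or TIM-3, was at 16.8 to 28.5 CPM (median 20.6) in M2 libraries, against 28.6 to 46.9 CPM (median 39.0) in M0 libraries (log2 fold change -0.83, SE 0.13). Cd86, a ligand of CD28, was at 5.05 to 7.73 CPM (median 6.25) in M2 libraries, against 8.35 to 11.05 CPM (median 9.69) in M0 libraries (log2 fold change -0.61, SE 0.17). None of these 4 overlapped between the groups, and the last 3 were lower with IL-4.

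MHC class II genes differed with the set of replicates. Over all 6 replicates 5 of 10 rose (median log2 fold change 0.62), and within replicates 1 to 3 alone 9 rose and within replicates 4 to 6 alone 9. H2-Aa, a class II chain, shows the sets apart in its levels. It was at 45.2 to 56.0 CPM in M2 and 24.001 to 37.0 CPM in M0 of replicates 1 to 3, and at 106 to 118 CPM in M2 and 75.8 to 85.8 CPM in M0 of replicates 4 to 6. It was higher with IL-4 within each set, while its pooled test missed the threshold (log2 fold change 0.52, SE 0.39, adjusted p = 0.402). Ciita, the master activator of class II genes, was at 4.24 to 9.26 CPM (median 5.87) in M2 libraries, against 0.900 to 4.45 CPM (median 2.91) in M0 libraries (log2 fold change 1.17, SE 0.34, adjusted p = 0.0111). H2-DMa, which loads peptides, was at 10.3 to 17.5 CPM (median 15.2) in M2 libraries, against 5.25 to 8.58 CPM (median 6.92) in M0 libraries (log2 fold change 1.07, SE 0.16, adjusted p = 9e-06). In the class I pathway 9 of 14 rose and 1 fell. Psmb10, an immunoproteasome subunit, was at 45.1 to 70.8 CPM (median 55.4) in M2 libraries, against 19.1 to 28.6 CPM (median 24.2) in M0 libraries (log2 fold change 1.27, SE 0.18). Tapbp, or tapasin, was at 283 to 376 CPM with IL-4, against 184 to 239.8 CPM without it (log2 fold change 0.66, SE 0.11), and Nlrc5, the activator of class I genes, fell (log2 fold change -0.42, SE 0.12).

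Chemokine genes went both ways, 6 up and 6 down of 18, with a median of -0.04. All 6 that rose were CC chemokines. Ccl7, which draws monocytes, was at 22.6 to 72.3 CPM (median 46.4) in M2 libraries, against 3.34 to 16.7 CPM (median 7.42) in M0 libraries (log2 fold change 2.41, SE 0.38, adjusted p = 4.96e-05). Ccl12 was at 1.96 to 6.22 CPM (median 3.24) in M2 libraries, against 0.181 to 1.11 CPM (median 0.470) in M0 libraries (log2 fold change 2.65, SE 0.38, adjusted p = 6.29e-06). Ccl8 was at 1.57 to 5.13 CPM (median 3.23) in M2 libraries, against 0.340 to 1.20 CPM (median 0.600) in M0 libraries (log2 fold change 2.28, SE 0.44, adjusted p = 0.000335). Their libraries did not overlap between the groups, and Ccl2 rose as well (log2 fold change 1.09, SE 0.37), though without 1 library its adjusted p was up to 0.105. Cxcl10, which draws activated T cells, was at 0 to 0.669 CPM (median 0.170) in M2 libraries, against 1.19 to 2.02 CPM (median 1.47) in M0 libraries (log2 fold change -2.78, SE 0.52, adjusted p = 0.000221). Ccl3 and Ccl4, the macrophage inflammatory proteins, fell (-1.03, SE 0.18, and -1.15, SE 0.20, log2 fold changes). Ccl22, a chemokine known from IL-4 cultures, was at 1.78 to 5.38 CPM (median 2.46) in M2 libraries, against 0.464 to 2.804 CPM (median 1.35) in M0 libraries and did not pass (log2 fold change 0.85, SE 0.35, adjusted p = 0.085).

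Among 13 chemoattractant receptors only Ccr1 rose, at 173 to 193 CPM (median 187) in M2 libraries, against 80.6 to 125 CPM (median 99.9) in M0 libraries (log2 fold change 0.88, SE 0.09, adjusted p = 1.44e-08), and Cx3cr1, Cxcr3 and C5ar1 fell, with 7 falls in replicates 4 to 6. C5ar1, the receptor of complement C5a, was at 304 to 368 CPM (median 346) in M2 libraries, against 516 to 568 CPM (median 527) in M0 libraries (log2 fold change -0.63, SE 0.06, adjusted p = 3.03e-08). Cxcr3 was at 0.669 to 2.35 CPM (median 1.003) in M2 libraries, against 3.06 to 6.38 CPM (median 3.65) in M0 libraries (log2 fold change -1.69, SE 0.25). Cx3cr1, the fractalkine receptor, was low, at 0 to 0.481 CPM (median 0.183) in M2 libraries, against 0.696 to 2.04 CPM (median 1.28) in M0 libraries (log2 fold change -2.55, SE 0.50).

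Receptors and signals of innate inflammation were lower more often than higher. Of 22 Toll-like receptor and adaptor genes 8 fell and 3 rose, with a median of -0.08. The falls were 36.4% and the rises 13.6%, against 11.4% and 12.2% of all genes tested. Beside Tlr2 and Cd14 the falls were Tlr9, a receptor of DNA, at 5.02 to 7.05 CPM (median 6.21) in M2 libraries, against 11.8 to 16.001 CPM (median 12.7) in M0 libraries (log2 fold change -1.14, SE 0.14), Tlr7, Tlr13, Cd180, Ly86 and Irak2. The 3 rises were Tlr8, at 327 to 468 CPM with IL-4, against 246 to 305 CPM without it (log2 fold change 0.55, SE 0.10), Tlr1 and the adaptor Ticam1. The calls of Cd180 and Tlr1 were lost when 1 library was left out, with adjusted p up to 0.0934 and 0.0769. Tlr4 did not pass (log2 fold change 0.00, SE 0.10, adjusted p = 0.989), although within replicates 4 to 6 it was higher (log2 fold change 0.16, adjusted p = 0.0098) and within replicates 1 to 3 it was lower without passing (-0.17, adjusted p = 0.344). Of 20 inflammatory cytokine and NF-kB feedback genes 7 fell and 1, Tnfrsf1b, rose. Tnf was at 6.95 to 8.38 CPM (median 7.56) in M2 libraries, against 11.05 to 15.5 CPM (median 13.7) in M0 libraries (log2 fold change -0.84, SE 0.11, adjusted p = 1.39e-06). Nfkbiz, an inducible co-factor of NF-kB, was at 0.240 to 1.57 CPM (median 0.788) in M2 libraries, against 3.13 to 4.33 CPM (median 3.99) in M0 libraries (log2 fold change -2.20, SE 0.30, adjusted p = 2.73e-06). Nfkbia, which holds NF-kB in the cytoplasm, was at 10.9 to 13.8 CPM (median 12.6) in M2 libraries, against 20.9 to 26.3 CPM (median 23.96) in M0 libraries (log2 fold change -0.93, SE 0.10, adjusted p = 7.22e-08). No library overlapped between the groups in these 3. Il18 fell (log2 fold change -0.71, SE 0.14), while Il10 did not pass (log2 fold change -0.70, SE 0.33, adjusted p = 0.136). In the IL-1 receptor family Il1rl1, the IL-33 receptor ST2, was at 3.01 to 6.72 CPM (median 4.63) in M2 libraries, against 1.74 to 2.799 CPM (median 2.28) in M0 libraries and rose (log2 fold change 1.07, SE 0.20).

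Interferon-stimulated genes fell in 20 of 45, 1 rose (Zbp1) and the median log2 fold change was -0.34. Ifit3 was at 2.87 to 6.69 CPM (median 3.56) in M2 libraries, against 11.02 to 19.2 CPM (median 16.5) in M0 libraries (log2 fold change -2.0, SE 0.24, adjusted p = 9.01e-07). Oas2, an enzyme that makes 2-5A from ATP on double-stranded RNA, was at 4.90 to 8.63 CPM (median 6.98) in M2 libraries, against 15.7 to 22.6 CPM (median 18.5) in M0 libraries (log2 fold change -1.46, SE 0.24, adjusted p = 6.1e-05). Ifit2 was at 9.79 to 18.8 CPM (median 13.4) in M2 libraries, against 27.7 to 41.6 CPM (median 29.9) in M0 libraries (log2 fold change -1.30, SE 0.25, adjusted p = 0.000413). In these 3 the groups did not overlap. Ifit1 (log2 fold change -1.45, SE 0.29), the near copy of Ifit3 named Ifit3b (log2 fold change -1.96, SE 0.41) and Mx1 (log2 fold change -1.25, SE 0.32) were among the other falls. The 24 that did not pass included Isg15 (log2 fold change -0.35, SE 0.20, adjusted p = 0.223). The letters of the interferon response element, TTTCNNTTTC on either strand, were in 8 of 15 windows of the genes that fell (53.3%), 13 of 21 windows of the genes that did not fall (61.9%) and 384 of 9355 windows of all tested genes (4.1%). The promoter of Ifit3 (chr19:34583279-34583528, plus strand, GRCm38.p6, RefSeq) is shown with both of its matches in capitals, which begin at -156 and -122 from the start.
Ifit3: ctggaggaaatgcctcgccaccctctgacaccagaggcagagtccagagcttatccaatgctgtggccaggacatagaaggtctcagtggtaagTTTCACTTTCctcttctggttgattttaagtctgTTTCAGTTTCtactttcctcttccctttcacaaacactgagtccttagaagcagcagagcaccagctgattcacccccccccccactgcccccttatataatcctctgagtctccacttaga
The share with a match thus stood no lower among listed genes that did not fall than among those that fell.

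Genes of cell division were lower with IL-4 almost throughout. Of 30 mitotic genes 29 fell and none rose (median log2 fold change -1.03), against 0.00 over all genes, and the member that did not pass was Cenpa. Top2a, topoisomerase II alpha, was at 73.1 to 129.6 CPM (median 80.9) in M2 libraries, against 141 to 278 CPM (median 199) in M0 libraries (log2 fold change -1.17, SE 0.23, adjusted p = 0.000445). Plk1, a kinase of spindle assembly, was at 6.13 to 13.7 CPM (median 8.38) in M2 libraries, against 15.8 to 31.7 CPM (median 19.8) in M0 libraries (log2 fold change -1.17, SE 0.22, adjusted p = 0.000307). Cenpf, of the kinetochore, was at 11.2 to 25.1 CPM (median 14.4) in M2 libraries, against 23.6 to 56.5 CPM (median 33.3) in M0 libraries (log2 fold change -1.28, SE 0.26, adjusted p = 0.000731), and its highest M2 library lay above its lowest M0 library. Nusap1, of the spindle, and Ccna2, cyclin A2, overlapped likewise (-1.20, SE 0.24, and -1.17, SE 0.26, log2 fold changes). Within replicates 1 to 3 alone 29 of the 30 fell, and within replicates 4 to 6 alone 29.

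DNA replication genes fell in 26 of 33, none rose and the median was -0.69. Pole, the catalytic subunit of DNA polymerase epsilon, was at 8.61 to 13.4 CPM (median 9.78) in M2 libraries, against 16.4 to 29.5 CPM (median 23.6) in M0 libraries (log2 fold change -1.14, SE 0.18, adjusted p = 2.42e-05). Rrm2, of ribonucleotide reductase, was at 20.4 to 36.3 CPM (median 24.6) in M2 libraries, against 39.9 to 70.5 CPM (median 55.5) in M0 libraries (log2 fold change -1.04, SE 0.23, adjusted p = 0.00193). Cdc6, which loads the replicative helicase, was at 2.64 to 6.58 CPM (median 4.93) in M2 libraries, against 7.10 to 13.4 CPM (median 10.1) in M0 libraries (log2 fold change -1.03, SE 0.21, adjusted p = 0.000492). Replicates 1 to 3 and replicates 4 to 6 alone gave 26 and 26 falls. Of 13 D cyclins, their kinases and inhibitors 6 fell and 1 rose. Ccnd3, cyclin D3, was at 5.83 to 16.3 CPM (median 8.58) in M2 libraries, against 15.2 to 22.0 CPM (median 18.5) in M0 libraries (log2 fold change -0.95, SE 0.17), the inhibitor Cdkn2c at 10.4 to 18.19 CPM (median 11.6) in M2 libraries, against 21.0 to 36.6 CPM (median 25.4) in M0 libraries (log2 fold change -0.98, SE 0.19), and Cdkn1a, the inhibitor p21, was the gene that rose (log2 fold change 0.31, SE 0.07).

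Many mitotic promoters carry the cell cycle homology region, TTTGAA on either strand. It was in 20 of 25 windows of the mitotic genes that fell (80.0%), in 58 of 194 windows of all genes at least 2-fold lower (29.9%) and in 1378 of 9355 windows of all tested genes (14.7%). The set at least 2-fold lower includes mitotic genes, so its share is not separate from theirs. A pair of them is shown with the 6 letters in capitals, Top2a at chr11:99024190-99024439 and Cdc20, an activator of the anaphase-promoting complex that also fell (log2 fold change -1.16, SE 0.20), at chr4:118437344-118437593, both on the minus strand (GRCm38.p6, RefSeq).
Top2a: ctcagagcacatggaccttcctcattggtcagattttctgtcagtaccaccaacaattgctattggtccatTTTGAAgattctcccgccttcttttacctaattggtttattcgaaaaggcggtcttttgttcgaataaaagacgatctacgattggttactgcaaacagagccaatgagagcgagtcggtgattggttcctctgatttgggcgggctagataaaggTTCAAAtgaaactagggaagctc
Cdc20: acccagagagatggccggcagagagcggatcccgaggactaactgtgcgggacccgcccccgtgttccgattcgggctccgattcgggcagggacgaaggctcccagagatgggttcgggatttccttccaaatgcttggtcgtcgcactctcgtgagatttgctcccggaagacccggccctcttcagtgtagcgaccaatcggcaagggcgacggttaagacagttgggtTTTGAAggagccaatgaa
The letters began at -179 and -23 from the start in Top2a and at -18 in Cdc20.

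**Figure D4:**
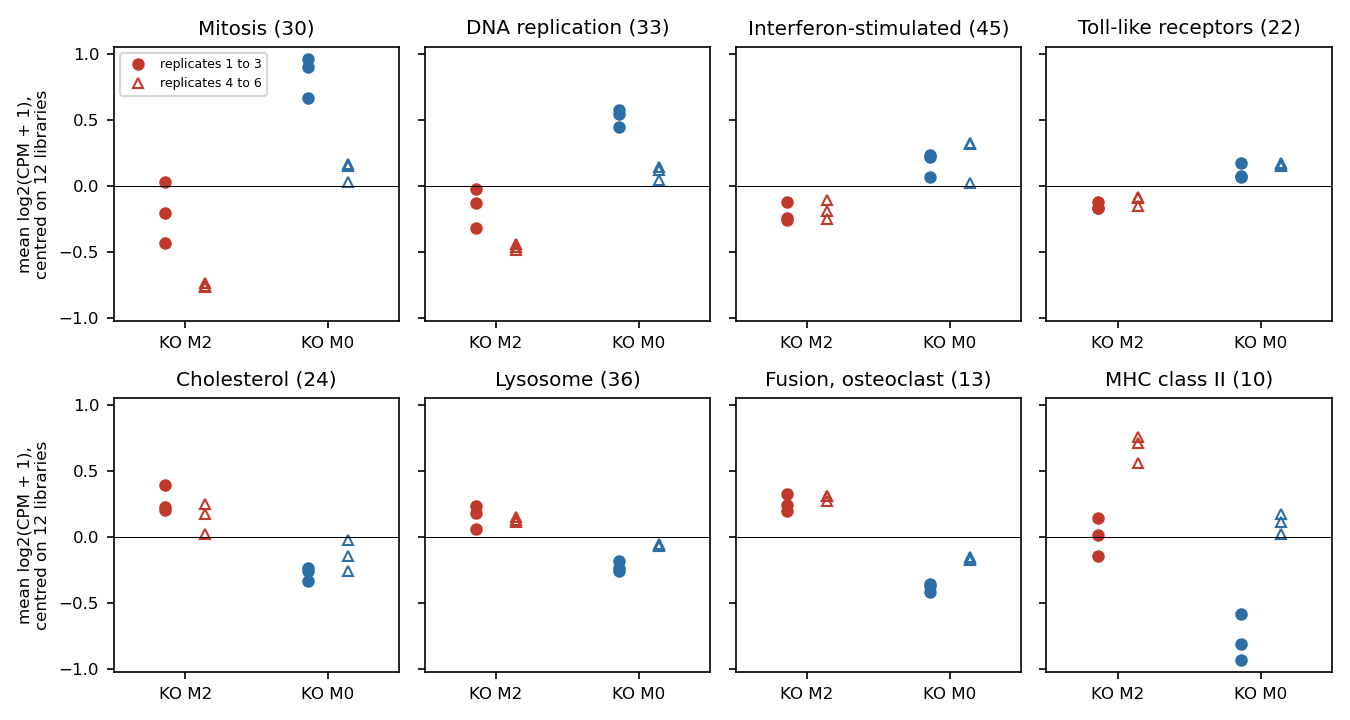
Level of 8 gene lists in each knockout library, as the mean over members (number in brackets) of log2(CPM + 1) after each gene was centred on its mean over 12 libraries. Red marks are M2 and blue marks M0 libraries, circles are replicates 1 to 3 and triangles replicates 4 to 6; mitotic genes lie at -0.77 to 0.03 in M2 and 0.03 to 0.96 in M0, and MHC class II genes are higher in replicates 4 to 6 of both groups.

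Of 24 genes of cholesterol synthesis and uptake 17 rose and none fell, with a median of 0.43. Hmgcs1, which makes HMG-CoA, was at 163 to 214 CPM (median 186) in M2 libraries, against 98.3 to 135 CPM (median 114) in M0 libraries (log2 fold change 0.70, SE 0.11, adjusted p = 4.21e-05). Mvd, of the mevalonate pathway, was at 9.92 to 18.0 CPM (median 13.5) in M2 libraries, against 6.0002 to 9.50 CPM (median 7.01) in M0 libraries (log2 fold change 0.92, SE 0.14, adjusted p = 1.23e-05). Dhcr7, of its last steps, was at 27.0 to 39.2 CPM (median 36.1) in M2 libraries, against 16.7 to 22.1 CPM (median 19.9) in M0 libraries (log2 fold change 0.84, SE 0.11, adjusted p = 1.16e-06). The groups did not overlap in these 3. The letters TCACNCCAC of the sterol regulatory element were in 1 of 10 windows of the risen genes, that of Hmgcs1, and in 1.35% of all windows. Fatty acid synthesis genes rose in 6 of 15, led by the desaturase Scd2 at 106 to 125 CPM (median 121) in M2 libraries, against 48.8 to 72.8 CPM (median 55.4) in M0 libraries (log2 fold change 1.02, SE 0.13), and none fell.

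Fatty acid uptake and oxidation genes rose in 15 of 30 and none fell, with a median of 0.23. Ppargc1b, a coactivator of mitochondrial genes, was at 2.45 to 5.04 CPM (median 3.90) in M2 libraries, against 1.02 to 2.12 CPM (median 1.73) in M0 libraries (log2 fold change 1.17, SE 0.20), with log2 fold changes of 0.58 in replicates 1 to 3 and 1.80 in replicates 4 to 6. Fabp4, a fatty acid carrier, was at 375 to 549.9 CPM (median 499) in M2 libraries, against 211 to 350.2 CPM (median 258) in M0 libraries (log2 fold change 0.80, SE 0.15). Of 39 nuclear genes of oxidative phosphorylation 10 rose and none fell, by small amounts such as that of Cox5a (log2 fold change 0.36, SE 0.10) and Atp5b (log2 fold change 0.29, SE 0.07), and the median was 0.19. In the citric acid cycle 6 of 25 rose and 1, Suclg2, fell (log2 fold change -0.37, SE 0.09), while Idh1 rose (log2 fold change 0.45, SE 0.10). Glycolysis and hypoxia genes were 8 higher and 4 lower of 27, with 2 lower in replicates 1 to 3 and 7 in replicates 4 to 6, and 2 lower without any of M2 replicates 1, 5 and 6. Hk2, hexokinase 2, was at 50.6 to 71.0 CPM (median 62.1) in M2 libraries, against 31.8 to 39.3 CPM (median 37.9) in M0 libraries (log2 fold change 0.76, SE 0.11). Slc2a1, the glucose transporter GLUT1, was at 36.4 to 45.5 CPM (median 39.9) in M2 libraries, against 20.1 to 28.5 CPM (median 23.95) in M0 libraries (log2 fold change 0.74, SE 0.08), whereas Ndrg1, a hypoxia gene, fell (log2 fold change -0.79, SE 0.12) and so did Slc2a3, or GLUT3 (log2 fold change -0.59, SE 0.16).

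Cholesterol export genes were divided. Abcg1, a sterol exporter, was at 395 to 557 CPM (median 507) in M2 libraries, against 231 to 367 CPM (median 313) in M0 libraries (log2 fold change 0.72, SE 0.11) and its partner Abca1 fell (log2 fold change -0.51, SE 0.14), with 6 higher and 4 lower of 18. Lysosome genes rose in 24 of 36 and none fell, with a median of 0.23, though 3 fell in replicates 4 to 6. Ctsl, cathepsin L, was at 4531 to 5782 CPM (median 5431) in M2 libraries, against 1913 to 3275 CPM (median 2531) in M0 libraries (log2 fold change 1.07, SE 0.12, adjusted p = 2.86e-07). Atp6v0a1, of the proton pump, was at 1156 to 1387 CPM (median 1259) in M2 libraries, against 653 to 784 CPM (median 718) in M0 libraries (log2 fold change 0.81, SE 0.06, adjusted p = 4e-10). Psap, the precursor of saposins, reached 20402 to 25618 CPM with IL-4, against 12592 to 17685 CPM without it (log2 fold change 0.62, SE 0.10). Of the 24 that rose, 11 encode parts of the proton pump, Atp6v0d2 with the largest change (log2 fold change 1.02, SE 0.13).

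The list of iron genes held 6 rises and 3 falls of 21, with 5 falls in replicates 4 to 6. Tfrc, the transferrin receptor, was at 2563 to 3635 CPM (median 3455) in M2 libraries, against 1079 to 1956 CPM (median 1579) in M0 libraries (log2 fold change 1.10, SE 0.13, adjusted p = 4.13e-07). Slc40a1, ferroportin, the iron exporter, was at 327 to 406 CPM (median 361) in M2 libraries, against 597 to 781 CPM (median 722) in M0 libraries (log2 fold change -0.96, SE 0.10, adjusted p = 3.56e-08). Alas1, of heme synthesis, rose (log2 fold change 0.82, SE 0.08). Cp, ceruloplasmin, which oxidizes iron on export, was at 0.753 to 2.04 CPM (median 1.68) in M2 libraries, against 2.89 to 4.60 CPM (median 3.47) in M0 libraries and fell (log2 fold change -1.21, SE 0.20). Stress genes rose in 16 of 35 and none fell. They included chaperones of the endoplasmic reticulum, such as Sdf2l1 (log2 fold change 0.66, SE 0.14). Pdia4, of these, was at 189 to 295 CPM (median 232) in M2 libraries, against 80.6 to 89.1 CPM (median 82.3) in M0 libraries (log2 fold change 1.48, SE 0.12, adjusted p = 1.34e-09). The cystine transporter Slc7a11 was at 36.2 to 59.5 CPM (median 52.5) in M2 libraries, against 14.9 to 27.4 CPM (median 22.2) in M0 libraries (log2 fold change 1.20, SE 0.15).

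Genes of cell fusion and osteoclasts rose in 8 of 13, 1 fell (4 in replicates 4 to 6) and the median was 0.78. IL-4 is known to fuse mouse macrophages into giant cells. Ocstamp, a fusion protein, was at 1.79 to 5.05 CPM (median 2.63) in M2 libraries, against 0.202 to 0.632 CPM (median 0.380) in M0 libraries (log2 fold change 2.84, SE 0.42, adjusted p = 1.24e-05). Dcstamp, its relative, was at 8.03 to 19.4 CPM (median 12.4) in M2 libraries, against 3.5001 to 12.6 CPM (median 7.21) in M0 libraries (log2 fold change 0.85, SE 0.29, adjusted p = 0.0365). Acp5, the tartrate-resistant phosphatase, was at 13.95 to 33.7 CPM (median 24.2) in M2 libraries, against 4.40 to 13.2 CPM (median 8.48) in M0 libraries (log2 fold change 1.43, SE 0.27, adjusted p = 0.000356). Atp6v0d2, a pump subunit needed for fusion in mouse, was at 1894 to 2623 CPM (median 2309) in M2 libraries, against 880.2 to 1354 CPM (median 1129) in M0 libraries (log2 fold change 1.02, SE 0.13, adjusted p = 1.57e-06). The groups did not overlap in Ocstamp, Acp5 and Atp6v0d2, and the call of Dcstamp was lost when 1 library was left out (adjusted p up to 0.0989). The gene that fell was Tnfrsf11a, or RANK (log2 fold change -0.26, SE 0.07). Tetraspanins rose in 8 of 17 and 2 fell, with 6 rises and 6 falls in replicates 4 to 6. The rises included Cd9, which is also known from fusion, at 567 to 673 CPM (median 621) in M2 libraries, against 301 to 382 CPM (median 326) in M0 libraries (log2 fold change 0.88, SE 0.07, adjusted p = 4e-10), Tspan5 (log2 fold change 0.97, SE 0.10) and Cd151 (log2 fold change 0.81, SE 0.10).

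Integrin subunits were 6 higher and 4 lower of 16. Itgax, or CD11c, was at 274 to 531 CPM (median 419.7) in M2 libraries, against 48.0 to 118 CPM (median 83.4) in M0 libraries (log2 fold change 2.32, SE 0.24, adjusted p = 1.38e-07). Itgb3, the beta 3 chain, was at 204 to 374 CPM (median 280.3) in M2 libraries, against 77.3 to 94.8 CPM (median 81.3) in M0 libraries (log2 fold change 1.77, SE 0.15, adjusted p = 3.27e-09). Itgb8, which activates TGF-beta, was at 3.21 to 5.24 CPM (median 3.98) in M2 libraries, against 0.10 to 1.10 CPM (median 0.593) in M0 libraries (log2 fold change 2.68, SE 0.39, adjusted p = 8.76e-06). Itga9 was lower, at 5.37 to 8.18 CPM (median 6.10) in M2 libraries, against 12.5 to 17.7 CPM (median 13.9) in M0 libraries (log2 fold change -1.15, SE 0.12). No group overlap was seen in these 4, against 14% of all genes tested without overlap. Matrix genes included Fn1, fibronectin, at 85.7 to 246 CPM (median 155) in M2 libraries, against 13.01 to 30.8 CPM (median 22.1) in M0 libraries (log2 fold change 2.89, SE 0.30, adjusted p = 2.02e-07), Cd44, the hyaluronan receptor (log2 fold change 0.69, SE 0.06), and the abundant Gpnmb (log2 fold change 0.50, SE 0.07). The matrix list held 5 rises and 2 falls of 22 (22.7% and 9.09%, against 12.2% and 11.4% of all genes tested), and 4 falls in replicates 4 to 6. Stromal cells also make fibronectin. The summed stromal markers given above overlapped between the groups, and the part of stromal cells in the rise of Fn1 was not tested.

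Of 21 genes of metalloproteinases, ADAM proteases and their inhibitors 8 rose and none fell. Mmp19 was at 108 to 164 CPM (median 134) in M2 libraries, against 44.3 to 66.1 CPM (median 51.8) in M0 libraries (log2 fold change 1.37, SE 0.12, adjusted p = 3.27e-09). Mmp12, the macrophage elastase, was at 2720.1 to 3772 CPM (median 3296) in M2 libraries, against 1443 to 2638 CPM (median 2099) in M0 libraries (log2 fold change 0.65, SE 0.14, adjusted p = 0.00083). Mmp13, a collagenase, was at 25.4 to 46.4 CPM (median 36.5) in M2 libraries, against 15.3 to 19.8 CPM (median 18.22) in M0 libraries (log2 fold change 1.02, SE 0.14, adjusted p = 2.47e-06). Mmp8, the neutrophil collagenase, was at 28.4 to 36.2 CPM (median 34.3) in M2 libraries, against 12.3 to 18.9 CPM (median 15.2) in M0 libraries (log2 fold change 1.12, SE 0.16, adjusted p = 8.39e-06). Coagulation genes were 6 higher and 2 lower of 19 (31.6% and 10.5%, against 12.2% and 11.4% of all genes tested). F10, factor X, was at 37.7 to 87.5 CPM (median 69.1) in M2 libraries, against 6.66 to 17.2 CPM (median 11.1) in M0 libraries (log2 fold change 2.50, SE 0.23, adjusted p = 3.03e-08). F7, factor VII, was at 59.1 to 92.4 CPM (median 74.3) in M2 libraries, against 11.1 to 30.7 CPM (median 18.4) in M0 libraries (log2 fold change 1.94, SE 0.17, adjusted p = 7.4e-09). Vwf, von Willebrand factor, was at 176 to 275 CPM (median 204) in M2 libraries, against 80.8 to 92.1 CPM (median 89.4) in M0 libraries (log2 fold change 1.26, SE 0.10, adjusted p = 6.06e-10). Of the endothelial list 3 genes were tested, of which 2 rose, Vwf among them, and 1 fell, while Cdh5 was near 0. The part of endothelial cells in the rise of Vwf was not tested. F13a1, a transglutaminase often named as an IL-4 gene of human monocytes, was at 0.913 to 3.30 CPM (median 3.10) in M2 libraries, against 4.45 to 7.14 CPM (median 5.56) in M0 libraries and fell (log2 fold change -1.08, SE 0.21).

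Angiogenic and growth factor genes rose in 5 and fell in 8 of 29, with a median of -0.09. The rises were 17.2% and the falls 27.6%, against 12.2% and 11.4% of all genes tested. The title of the series names the angiogenic factors of macrophages. Flt1, a receptor of VEGF, was at 6.61 to 10.5 CPM (median 8.25) in M2 libraries, against 0.241 to 0.722 CPM (median 0.548) in M0 libraries (log2 fold change 4.00, SE 0.32, adjusted p = 4.99e-10). Kdr, the other main VEGF receptor, was at 1.88 to 3.73 CPM (median 2.58) in M2 libraries, against 3.60 to 6.71 CPM (median 5.14) in M0 libraries and lower (log2 fold change -0.89, SE 0.21), with overlap between the groups. Angptl2, an angiopoietin-like protein, was at 281 to 410.4 CPM (median 316) in M2 libraries, against 78.5 to 103 CPM (median 90.2) in M0 libraries (log2 fold change 1.90, SE 0.15, adjusted p = 8.94e-10). Pdgfa, a PDGF chain, was at 28.2 to 38.1 CPM (median 30.1) in M2 libraries, against 13.7 to 16.8 CPM (median 15.1) in M0 libraries (log2 fold change 1.07, SE 0.08, adjusted p = 3.01e-10). Hbegf, an EGF-type ligand, was at 8.92 to 10.5 CPM (median 9.13) in M2 libraries, against 2.67 to 4.64 CPM (median 4.102) in M0 libraries (log2 fold change 1.25, SE 0.14, adjusted p = 2.43e-07). Vegfa was at 13.7 to 18.7 CPM (median 16.7) in M2 libraries, against 18.0 to 24.6 CPM (median 23.4) in M0 libraries (log2 fold change -0.41, SE 0.10, adjusted p = 0.00453), with overlap between the groups.

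Fc and TREM receptor genes were 4 higher and 4 lower of 18, with 2 lower in replicates 1 to 3 and 9 in replicates 4 to 6. Fcgr2b, the inhibitory IgG receptor, was at 375 to 656 CPM (median 531) in M2 libraries, against 70.3 to 118 CPM (median 104) in M0 libraries (log2 fold change 2.41, SE 0.22, adjusted p = 2.45e-08). Fcgr1, the activating high-affinity receptor, was at 57.8 to 75.4 CPM (median 68.0) in M2 libraries, against 109.8 to 129.7 CPM (median 114) in M0 libraries (log2 fold change -0.80, SE 0.09, adjusted p = 4.13e-07), with no overlap in either. Scavenger receptors were 3 higher and 5 lower of 14, with 3 lower in replicates 1 to 3 and 7 in replicates 4 to 6. Stab1, stabilin 1, was at 164 to 359.8 CPM (median 237) in M2 libraries, against 431 to 509.9 CPM (median 489) in M0 libraries (log2 fold change -0.92, SE 0.14, adjusted p = 3.41e-05), and Marco fell (log2 fold change -1.12, SE 0.34). Genes for the uptake of dying cells counted 4 rises and 7 falls of 17. Gas6, which bridges phosphatidylserine to TAM receptors, was at 211 to 362 CPM (median 252) in M2 libraries, against 388 to 536 CPM (median 459) in M0 libraries (log2 fold change -0.76, SE 0.11, adjusted p = 1.06e-05). Anxa1, annexin A1, was at 2533 to 2772 CPM (median 2629) in M2 libraries, against 1315 to 1588 CPM (median 1489) in M0 libraries (log2 fold change 0.84, SE 0.06, adjusted p = 1.28e-10). The complement list held 3 rises and 5 falls of 18, with 2 falls in replicates 1 to 3 and 6 in replicates 4 to 6. Over all replicates 16.7% of it rose and 27.8% fell, against 12.2% and 11.4% of all genes tested. C3 was at 24.1 to 40.6 CPM (median 34.2) in M2 libraries, against 10.4 to 15.8 CPM (median 13.5) in M0 libraries (log2 fold change 1.33, SE 0.23), and the 3 chains of C1q fell, C1qa at 21.9 to 39.5 CPM with IL-4, against 36.0 to 69.9 CPM without it (log2 fold change -0.73, SE 0.16).

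Genes of lipid mediators and of their receptors moved in both directions. Ptgs1, cyclooxygenase 1, was at 45.8 to 67.1 CPM (median 49.7) in M2 libraries, against 6.73 to 10.8 CPM (median 8.28) in M0 libraries (log2 fold change 2.63, SE 0.16, adjusted p = 6.15e-12). Hpgds, prostaglandin D synthase, was at 197 to 282 CPM (median 275) in M2 libraries, against 370.0 to 421 CPM (median 401) in M0 libraries (log2 fold change -0.63, SE 0.10). Of the receptors of prostaglandin E2, Ptger2 was at 17.7 to 26.0 CPM (median 22.4) in M2 libraries, against 3.93 to 11.02 CPM (median 7.56) in M0 libraries (log2 fold change 1.60, SE 0.16, adjusted p = 3.29e-08). Ptger4 was at 3.23 to 4.31 CPM (median 3.68) in M2 libraries, against 7.89 to 9.84 CPM (median 8.59) in M0 libraries (log2 fold change -1.23, SE 0.10, adjusted p = 1.02e-09). In neither did the groups overlap, and the directions were opposite. Gpr34, a receptor of lysophosphatidylserine, fell (log2 fold change -1.29, SE 0.20) and P2ry1, a receptor of ADP, rose (log2 fold change 1.08, SE 0.14). That list held 6 rises and 7 falls of 22 (27.3% and 31.8%), and the eicosanoid list 3 and 2 of 17 (17.6% and 11.8%), with 5 rises in replicates 4 to 6. The eicosanoid shares lay near those over all genes tested, 12.2% higher and 11.4% lower.

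Ion channels were 9 higher and 2 lower of 25. Beside Kcnd3 and Scn3a, Clcn5, an endosomal chloride exchanger, was at 124 to 157 CPM (median 144) in M2 libraries, against 65.8 to 74.1 CPM (median 67.6) in M0 libraries (log2 fold change 1.05, SE 0.07, adjusted p = 2.08e-11). Hvcn1, the voltage-gated proton channel, was at 209.7 to 280.4 CPM (median 273) in M2 libraries, against 122 to 176 CPM (median 151) in M0 libraries (log2 fold change 0.80, SE 0.10), and Trpm2, a channel opened by ADP-ribose, fell (log2 fold change -1.08, SE 0.18). Of 8 genes of colony-stimulating factors and their receptors 4 rose and none fell, and the M-CSF receptor Csf1r missed the threshold (log2 fold change 0.20, SE 0.12, adjusted p = 0.249). Csf2rb, the common beta chain of the IL-3, IL-5 and GM-CSF receptors, was at 691 to 940.1 CPM (median 816) in M2 libraries, against 232 to 316 CPM (median 284) in M0 libraries (log2 fold change 1.56, SE 0.11, adjusted p = 1.43e-10), and its near copy Csf2rb2 rose too (log2 fold change 0.97, SE 0.08). Csf1, which encodes M-CSF, was at 14.4 to 29.3 CPM (median 19.9) in M2 libraries, against 4.79 to 12.7 CPM (median 8.19) in M0 libraries (log2 fold change 1.32, SE 0.20, adjusted p = 1.38e-05). In the gp130 family 3 of 9 genes rose, Il6st, Il11ra1 (log2 fold change 1.23, SE 0.19) and Il27ra (log2 fold change 1.11, SE 0.24), and none fell. In the TGF-beta list Lrrc32 rose and 4 of 20 fell, 2 in replicates 1 to 3 and 5 in replicates 4 to 6. Smad3, which carries the signal to the nucleus, was at 6.37 to 9.26 CPM (median 8.68) in M2 libraries, against 14.1 to 18.4 CPM (median 15.4) in M0 libraries (log2 fold change -0.95, SE 0.10).

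The p38 and MK2 pathway and its RNA-binding proteins were 3 higher and 6 lower of 24, with a median of -0.03. Mapkapk3, the closest relative of MK2, was at 64.0 to 88.8 CPM (median 77.7) in M2 libraries, against 40.2 to 47.6 CPM (median 46.0) in M0 libraries (log2 fold change 0.79, SE 0.12, adjusted p = 1.18e-05), and every M2 library lay above every M0 library. Zfp36, tristetraprolin, an MK2 substrate that destabilizes AU-rich messages, was at 102 to 134 CPM (median 112) in M2 libraries, against 87.1 to 92.1 CPM (median 91.0) in M0 libraries (log2 fold change 0.35, SE 0.09, adjusted p = 0.0046). Mapk14, p38 alpha, fell by a small amount (log2 fold change -0.24, SE 0.07), Mapk11, p38 beta, was low and fell (log2 fold change -1.23, SE 0.30), and Map3k5, the kinase ASK1, was at 4.91 to 8.62 CPM (median 7.24) in M2 libraries, against 12.5 to 15.4 CPM (median 13.9) in M0 libraries (log2 fold change -0.95, SE 0.11). Lsp1, a leukocyte actin-binding protein that MK2 phosphorylates, was at 13.6 to 26.7 CPM (median 21.0) in M2 libraries, against 30.4 to 75.8 CPM (median 49.9) in M0 libraries (log2 fold change -1.28, SE 0.19, adjusted p = 1.66e-05). Dual-specificity phosphatases were 3 higher and 4 lower of 13 (23.1% and 30.8%). Dusp4 was at 65.6 to 105 CPM (median 85.7) in M2 libraries, against 23.0 to 29.6 CPM (median 25.4) in M0 libraries (log2 fold change 1.72, SE 0.14, adjusted p = 1.15e-09). Dusp1, which acts on p38 and JNK, was at 29.3 to 35.2 CPM (median 32.3) in M2 libraries, against 53.0 to 67.2 CPM (median 59.3) in M0 libraries (log2 fold change -0.89, SE 0.09, adjusted p = 3.56e-08), and Dusp6, which acts on ERK, fell (log2 fold change -0.86, SE 0.18).

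Immediate early genes were 7 higher and 6 lower of 22 at this single time. Ier3 was at 14.97 to 26.0 CPM (median 22.9) in M2 libraries, against 3.16 to 5.50 CPM (median 4.31) in M0 libraries (log2 fold change 2.33, SE 0.29, adjusted p = 1.47e-06). Fos was at 26.2 to 41.6 CPM (median 31.0) in M2 libraries, against 50.3 to 68.7 CPM (median 62.3) in M0 libraries (log2 fold change -0.92, SE 0.09). Jun, its partner in AP-1, was at 179.8 to 203 CPM (median 188) in M2 libraries, against 157 to 174 CPM (median 167) in M0 libraries (log2 fold change 0.18, SE 0.05). Egr3 was low and fell (log2 fold change -2.25, SE 0.45) while Egr2 rose.

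The wild-type libraries show how far these changes are shared. In wild type 2103 genes changed with IL-4 (16.4%), 8.49% higher and 7.95% lower. Of the 3024 knockout genes 1794 passed in wild type as well, 59.3% of the knockout genes and 85.3% of the wild-type genes, and all of them had the same direction. The 4 groups are separate libraries fitted together, so the responses share no control. Of the 1230 genes that passed in knockout alone, 1196 had the same sign in wild type. Across the 10099 genes averaging a log2 CPM of 2 or more, the log2 fold changes had a Pearson r of 0.88, and across all 12797 tested 0.74, a description over genes, which are not independent replicates.

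The difference between the responses was tested for every gene in the same fit. By edgeR's quasi-likelihood test 0 genes passed (0.0%), with a smallest adjusted p of 0.406, and 390 had an unadjusted p below 0.05. With a replicate block the same test called 2, DESeq2 called 1, and limma called 3 with a pseudocount of 1 and 0 with a pseudocount of 0.1. A call in knockout and none in wild type is therefore no difference shown between them. Of the genes that passed in knockout, 2623 had the larger log2 fold change there (86.7%), and of the genes that passed in wild type 1433 (68.1%). The choice of genes by a call in one genotype sets such a share in part. Over all genes tested 57.7% had the larger absolute change in knockout, where the median of the absolute log2 fold change was 0.167, against 0.154 in wild type.

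Of the 6 genes at the smallest adjusted p for the difference, Mgl2 and Lrrc32 are defining markers. The 5 markers were chosen with earlier results of these data known, and all 5 had the larger change in knockout. The place of Mgl2 and Lrrc32 here may follow in part from that choice. Mgl2 was at 39.3 to 50.5 CPM in knockout M2 and 0.348 to 1.27 in knockout M0 libraries, and at 15.1 to 25.6 CPM in wild-type M2 and 0.502 to 1.64 in wild-type M0 libraries. Its log2 fold change was 6.06 in knockout and 4.36 in wild type, a difference of 1.71 (SE 0.37, unadjusted p = 9.35e-05, adjusted p = 0.406). Lrrc32 was at 6.40 to 10.03 CPM in wild-type M2 and 2.14 to 2.94 in wild-type M0 libraries, and its difference was 1.16 (SE 0.24, unadjusted p = 4.13e-05, adjusted p = 0.406). Csf1 rose by 1.32 in knockout, against 0.21 (SE 0.17) in wild type, where it was at 33.6 to 47.5 CPM in M2 and 30.5 to 42.3 CPM in M0 libraries (difference 1.11, adjusted p = 0.494). Cp fell in knockout, against a wild-type log2 fold change of -0.01 (SE 0.18), a difference of -1.20 with adjusted p = 0.406. None of these 4 differences passed after adjustment. Stromal markers summed to 138 to 192 CPM in wild-type M2 and 144 to 220.0 CPM in wild-type M0 libraries, above all knockout libraries, and their part in these differences was not tested.

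**Figure D5:**
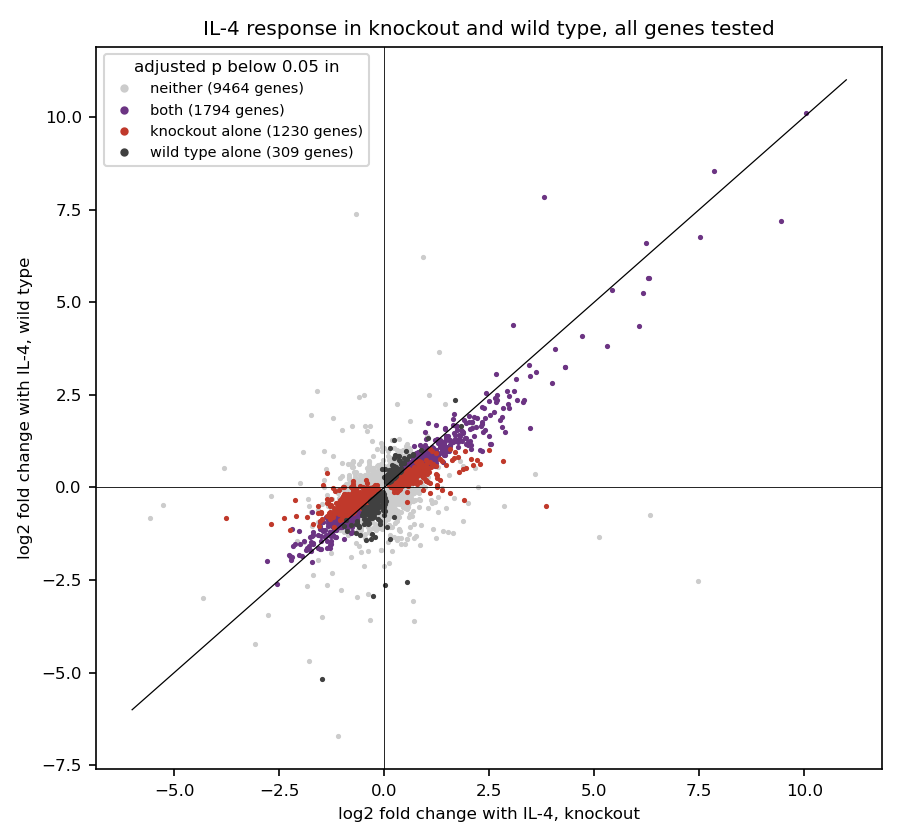
Log2 fold change of M2 over M0 in knockout (x axis) and in wild type (y axis) for all 12797 genes tested, coloured by the genotype in which the adjusted p was below 0.05, with the line of equal change. The 1794 genes that passed in both lie on either side of 0 together, and the 1230 that passed in knockout alone lie nearer the x axis.

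Of the 49 lists, 42 had medians of the same sign in both genotypes and 7 had medians of opposite sign, which lay between -0.04 and 0.18. Among the first, medians were -1.03 in knockout and -0.84 in wild type for mitotic genes, -0.34 and -0.30 for interferon genes, 0.43 and 0.43 for sterol genes, and 0.78 and 0.58 for fusion and osteoclast genes. Mitotic genes fell in 29 of 30 in knockout and in 25 in wild type, and lysosome genes rose in 24 of 36 and in 17. Differences between such counts were not tested.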

How the data were processed

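Total RNA of macrophages was sequenced from 24 Kapa Hyperprep libraries as single 40 bp reads, per the labels' protocols. The submitters' processing notes name CASAVA 2.8.0, Bowtie2 2.3.4.1, RSEM 1.3.0, edgeR and the mm10 build. The deposited file of expected counts holds RSEM estimates that the authors rounded to whole numbers. A second deposited file holds GETMM values, a signal that the authors scaled by gene length and library, and it equals the counts times a factor of the gene and a factor of the library. No label says whether reads were counted by strand, so overlapping and antisense genes are uncertain.

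From the counts, genes with a minimum count of 10 by filterByExpr were kept, which left 12797 of 54429 symbols and 99.8% of counts. Library sizes were scaled by TMM. All 24 libraries, at 7893809 to 13492507 counts, entered 1 edgeR 4.0.16 quasi-likelihood fit with 4 groups (R 4.3.3), tested on simulated counts, with Benjamini-Hochberg adjustment. CPM use TMM-scaled sizes, and summed marker levels use total counts. Intervals and floors cover counting error only. Alternatives used DESeq2 1.42.0 and limma 3.58.1.

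The libraries, gene lists and defining markers were chosen with earlier results of these data known. Named genes are the defining markers, the 15 largest changes and the 10 smallest p-values per direction, up to 5 changed members of each list with the largest change, and unchanged members given as values. Members named beyond that rule, such as Ccl3, Vegfa and Zfp36, were chosen after their values were seen. A few genes are not reported here. Gene positions follow GENCODE M21, and promoter sequences RefSeq (GRCm38.p6).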

Additional observations from a re-analysis of the deposited data

Results flagged for a closer look

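Among the genes named here with at least 30 counts in a group, 463 groups of 6 knockout libraries were examined for a library far from the other 5 by Dixon's test at its 95% critical value, and 24 had one (5.18%). Chance gives about 1 in 20. Replicate 3 of M2 held 7 of them, and replicate 2 of M2, which is numbered apart from the rest, 5. Why these libraries differ was not tested.

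In M2 replicate 1, Ifit1 was above the others at 5.58 CPM (others 2.35 to 3.37) and Ifit3 was above the others at 6.69 CPM (others 2.87 to 3.92). In M2 replicate 2, Cd151 was above the others at 113 CPM (others 86.8 to 95.8) and Cd68 was above the others at 2092 CPM (others 1640.2 to 1805). There Cdkn1a was above the others at 252 CPM (others 215 to 223) and Jak3 was above the others at 24.3 CPM (others 14.4 to 16.8). In the same library Trpm2 was above the others at 3.48 CPM (others 1.67 to 2.35). In M2 replicate 3, Bcar3 was below the others at 82.7 CPM (others 99.3 to 108) and Cenpf was above the others at 25.1 CPM (others 11.2 to 15.3). There Ctsl was below the others at 4531 CPM (others 5341 to 5782) and Dhcr7 was below the others at 27.0 CPM (others 34.7 to 39.2). In the same library Lyz2 was below the others at 6889 CPM (others 8062 to 8458) and Mcf2l was below the others at 24.3 CPM (others 36.5 to 41.3). Further, Tmem176b was below the others at 2.43 CPM (others 3.90 to 4.21). In M2 replicate 4, Slc2a3 was below the others at 2.09 CPM (others 3.59 to 4.33). In M2 replicate 5, Ass1 was above the others at 9.41 CPM (others 7.57 to 8.25) and Ccl22 was above the others at 5.38 CPM (others 1.78 to 3.13). There Zcchc24 was below the others at 24.2 CPM (others 27.7 to 28.3). In M0 replicate 2, C5ar1 was above the others at 568 CPM (others 516 to 535) and Cd44 was above the others at 626 CPM (others 603 to 611). There Cd68 was above the others at 2031 CPM (others 1623 to 1714) and Vwf was below the others at 80.8 CPM (others 88.6 to 92.1). In M0 replicate 5, Jak2 was above the others at 47.3 CPM (others 39.7 to 41.5). In M0 replicate 6, Amd1 was below the others at 61.7 CPM (others 66.8 to 68.7).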

How the results depend on the processing

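The counts of genes higher and lower with IL-4 in knockout stayed within 1.5 times of the reported ones under all 24 alternatives. They were 1285 higher and 1152 lower in replicates 1 to 3 alone and 1712 higher and 1516 lower in replicates 4 to 6 alone, 1339 and 1049 with no count filter, 1413 and 1583 by limma on log2(GETMM + 1), and 1403 to 1536 higher and 1247 to 1444 lower when 1 library was left out. With a replicate block they were 1706 higher and 1773 lower. Column names give the M2 and the M0 library of a replicate the same number, but no label says that these libraries pair. The main fit had no block. Deviations of same-numbered M2 and M0 libraries over 7037 genes correlated at 0.39, -0.17, 0.58, 0.39, 0.49 and -0.15. Of the 6 M2 libraries 4 correlated best with their own number, so whether the libraries pair was not settled. The difference between the genotypes, called for 0 genes, was called for 2 higher under the replicate block over all 24 libraries, 1 higher by DESeq2, and 2 higher and 1 lower by limma on log2(GETMM + 1). The causes were not tested. Of 223 named genes that passed, 196 passed under every alternative and none changed sign, and 2060 of 2184 list counts stayed within 1.5 times. With no count filter the citric acid cycle list had 3 rises in place of 6, and the angiogenic list 5 falls in place of 8.

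Values near 0 changed sign. Il4ra had log2 fold changes of -0.00 in the 12 knockout libraries, -0.01 with the replicate block, -0.14 in replicates 4 to 6, -0.07 without the 3 libraries numbered apart, -0.02 by limma with either pseudocount, and -0.07 to 0.04 with 1 library left out. Tlr4 had -0.00 in the 12 libraries and with a term for the set, -0.02 with the replicate block, -0.17 in replicates 1 to 3, -0.03 by limma with either pseudocount, and -0.03 to 0.08 with 1 library left out. Cenpa and Lyz2 had 0.00 in replicates 1 to 3, and Adgre1 -0.11 in replicates 4 to 6. Wide SE were found for Socs3 (0.54) and Pdcd1lg2 (0.59), the latter near 0 CPM without IL-4. Chil3 and H2-Aa, at higher levels, also had a wide SE, and the part of depth was not tested.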

Other observations

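Some genes known from IL-4 cultures of mouse macrophages had too few counts to be tested. Over the 6 libraries of a group, Chil4, a close relative of Chil3, had 29 counts in M2 and 1 in M0 knockout libraries. Ccl17, a chemokine of type 2 responses, had 7 and 0 counts, and Ccl24, an eotaxin, had 11 and 7.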
